A study of Mus musculus with 2 samples.

Results

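The 6 transcripts followed here crowd the top of many single-cell libraries: the nuclear long noncoding RNAs Malat1 and Neat1, the chromosome 17 transcripts Gm26917, Gm42418 and AY036118, which lie at a ribosomal RNA-like locus, and the Lars2 messenger RNA. They were picked by name and are 6 of the 32285 genes of the count tables, and all 6 were detected in both libraries. The data came from blood of C57BL/6J wild-type (WT) mice and of APP/PS1 mice, a model of Alzheimer's disease that carries mutant human amyloid precursor protein and presenilin transgenes. The mice were females aged 7 months, and each genotype was a single 10x Genomics library (v3.0 kit) made from the neutrophil-enriched blood cells of 3 pooled mice. With 1 library per genotype no test between genotypes was possible, no p-value is given, and every interval below is an exact 95% interval that covers counting error only, not the spread between mice.

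Malat1 RNA gathers at nuclear speckles, the stores of splicing factors, and Neat1 RNA is the scaffold of paraspeckles, nuclear bodies that hold RNA-binding proteins such as Sfpq and Nono. Ribosomal RNA is made in the nucleolus and is the bulk of cellular RNA, but it carries no regular poly(A) tail, so kits that prime from poly(A) should capture little of it. Lars2 encodes the leucyl-tRNA synthetase of mitochondria, which charges leucine onto a transfer RNA for translation inside the organelle. Neutrophils are short-lived cells with small RNA content, and a barcode with few transcripts can be an intact neutrophil, a platelet or a damaged cell.

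All 6 gene identifiers were found in GENCODE M21 on GRCm38 (mm10). Malat1 (ENSMUSG00000092341, chr19:5795690-5802672, minus strand) is an annotated lincRNA of 1 exon and 6983 bases in its longest transcript. Neat1 (ENSMUSG00000092274, chr19:5824708-5845478, minus strand) is a lincRNA of 1 exon and 20771 bases, and 22035 bases separate it from Malat1. The longest stretch that blastn matched between the pair was 147 bases at 91.8% identity. Their 3' regions are shown because both RNAs carry the same pair of U-rich elements and an A-rich tract there. Capitals mark matches to TTNCTTTT and the A-rich tract, both read 5′ to 3′ on the transcript strand only.
Malat1 3' region: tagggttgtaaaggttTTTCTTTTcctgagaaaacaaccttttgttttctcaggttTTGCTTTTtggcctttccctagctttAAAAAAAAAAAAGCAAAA
Neat1 3' region: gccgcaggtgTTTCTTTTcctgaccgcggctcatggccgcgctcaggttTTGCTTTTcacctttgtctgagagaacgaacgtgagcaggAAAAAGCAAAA
The Malat1 stretch is chr19:5795982-5796081 (GRCm38, minus strand), bases 6592 to 6691 of the transcript, and 292 annotated bases follow it. The Neat1 stretch is chr19:5824708-5824807 (minus strand), bases 20672 to 20771, and ends at the last base of the annotated transcript. The string AAAAAGCAAAA, taken as the last 11 bases of Neat1, occurred in the longest transcripts of 304 of 55341 genes (0.549%). Together with at least 2 matches to TTNCTTTT in the 100 bases that end with it, it occurred in 3 genes (0.00542%), which were Malat1, Neat1 and Sox4. Malat1 and Neat1 were shown because they carry these elements, so their place among the 3 was set in advance and the share is no test.

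The chromosome 17 transcripts sit next to each other. Gm26917 (ENSMUSG00000097971, chr17:39843013-39846341, plus strand) is a lincRNA of 3329 bases with a GC content of 69.1%. Gm42418 (ENSMUSG00000098178, chr17:39846958-39848788, plus strand) starts 616 bases after it and has 1831 bases in 1 exon. AY036118 (ENSMUSG00000105361, chr17:39847113-39848035, minus strand) has 923 bases, and its whole sequence was the reverse complement of bases 156 to 1078 of Gm42418, which is 50.4% of that transcript. The boundary of the overlap is shown on both strands, with the shared bases in capitals. Within the shared bases, the counts of this pair can be told apart only by strand.
Gm42418 junction: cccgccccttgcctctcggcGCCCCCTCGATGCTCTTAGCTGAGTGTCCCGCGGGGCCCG
AY036118 end: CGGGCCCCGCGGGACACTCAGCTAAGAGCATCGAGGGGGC
The Gm42418 stretch is chr17:39847093-39847152 (plus strand, bases 136 to 195) and the AY036118 stretch chr17:39847113-39847152 (minus strand, bases 884 to 923). GENCODE also annotates an rRNA gene there, CT010467.1 (chr17:39846353-39848827, minus strand), which is absent from the count tables. AY036118 lay unbroken in its first transcript at bases 167 to 1089, in the same sense. The first 1244 bases of Gm42418 (67.9%) lay on the reverse strand of that transcript. The annotated strand of CT010467.1 was taken as given, and which strand matches mature ribosomal RNA was not checked. Since CT010467.1 has no counts of its own, the part of ribosomal RNA in the Gm42418 counts or the AY036118 counts was not tested. RefSeq gives Gm42418 as a synonym of the pseudogene Rn18s-rs5. Gm26917 had no blastn match to any of the 391 annotated rRNA and mitochondrial transcripts searched, nor to Gm42418 or AY036118. Lars2 (ENSMUSG00000035202, chr9:123366927-123462666, plus strand) is protein coding, with 21 exons and 3894 bases in its longest transcript. None of its 9 transcripts matched an annotated rRNA or mitochondrial transcript. Gm42418 and AY036118 each matched only 1 of the 391. Which parts of ribosomal RNA the 391 cover was not checked. The lack of a match for Gm26917 and Lars2 therefore says nothing about parts outside that set.

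Because the kit primes from runs of A, the A-richest window of 20 bases was also read from each longest transcript, with A in capitals.
Malat1: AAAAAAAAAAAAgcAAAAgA
Neat1: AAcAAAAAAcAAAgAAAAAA
Gm26917: cAAAgggAAAgAggctAgcA
Gm42418: AAAAAAttAgAgtgttcAAA
AY036118: cgAAAAccAAcAAAAtAgAA
Lars2: cAAAAAcAAAAgAgAAgttA
Malat1 and Neat1 each reached 17 A in 20 bases, a number met or passed by 7.43% of 55320 genes. Gm42418 reached 11 (80.5% by the same count), AY036118 and Lars2 reached 13 (49.3%), and Gm26917 reached 9 (94.1%). By this count the chromosome 17 transcripts were not A-rich within their annotated ends. The count is a maximum over all windows, and a longer transcript has more of them. Neither the counts nor the shares of genes were matched for length.

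The libraries held 17123 (WT) and 17645 (APP/PS1) barcodes with 92458623 and 84870864 unique molecular identifiers (UMIs, each standing for 1 captured transcript). After the limits of the study's methods, 14564 and 15208 cells remained, of which 6461 and 7138 fell in neutrophil-like clusters, so the enriched samples also held monocyte-like, lymphocyte-like, basophil-like and erythroid-like cells. A cluster of 1124 and 2452 kept cells carried platelet markers together with neutrophil markers and was left out of the neutrophil-like class. Scrublet called 1548 and 1286 barcodes doublets, and 83 barcode sequences occurred in both libraries. The 6 transcripts were left out of the genes used for clustering. They still counted in each cell's total for scaling, in the limits on UMIs and genes and in the doublet calls. Levels below are CPM, the UMIs of a gene scaled to the same total for every summed class.

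The 6 transcripts took 3.47% of all UMIs in the WT library and 4.59% in the APP/PS1 library. Gm42418 took the most, at 1.81% and 2.55%, followed by Malat1 at 1.29% and 1.59%. Neat1 held 0.154% and 0.171%, AY036118 0.129% and 0.159%, Lars2 0.0765% and 0.114%, and Gm26917 0.00468% and 0.00474%. All barcodes enter these shares, so differences in cell makeup between the libraries are part of them.

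In kept neutrophil-like cells the transcripts did not move together between genotypes. Gm42418 and Lars2 were higher in the APP/PS1 library, AY036118 less so, Malat1 differed little, and Neat1 was lower. Of the 6, Gm42418 and Gm26917 were past a log2 difference of 0.5, both higher in APP/PS1. Gm42418 was just short of it with all barcodes (0.497) and with TMM scaling (0.496), and Gm26917 was at 0.016 with a per-cell marker gate in place of clusters. The same fold was passed by 4.74% of the 5501 genes with at least 200 UMIs in the 2 sums, and in the higher direction by 2.2%. The median log2 difference of all these genes was 0.05.

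Malat1 was high in most nucleated classes. In neutrophil-like cells its level was 18566 CPM (18504 to 18628) in the WT library against 19989 CPM (19929 to 20049) in the other, a log2 difference of 0.11. B cell-like cells (19022 and 19764 CPM) and NK cell-like cells (19132 and 20769 CPM) overlapped this range, so these 3 classes had no order beyond the difference between libraries. T cell-like cells (14156 and 15989 CPM), nonclassical monocyte-like cells (14088 and 14915 CPM) and basophil-like cells (12822 and 14747 CPM) came next and also overlapped each other.

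Classical monocyte-like cells were well below these, at 7362 and 7856 CPM of Malat1. Their log2 difference from neutrophil-like cells was -1.33 in WT and -1.35 in APP/PS1. Among all deposited barcodes, erythroid-like cells, whose RNA is mostly haemoglobin, were at 1918 and 2409 CPM, and platelet-like barcodes, which lack a nucleus, at 904 and 1022 CPM. Among the named classes Malat1 was therefore lowest in the anucleate and nucleus-losing lineages in both libraries. A kept cluster of 45 WT and 79 APP/PS1 cells, led by Jchain, Igha and Iglc1, was left as mixed and is not among them. With each cell thinned to 1000 UMIs, 48.9% (WT) and 35.4% (APP/PS1) of its cells had a Malat1 UMI. Kept erythroid-like cells had 73.2% and 92.1%, and all erythroid-like barcodes 24.7% and 29.5%. Low detection of Malat1 was thus not limited to the erythroid-like and platelet-like classes. Between genotypes the Malat1 log2 difference was 0.06 to 0.18 in 7 kept clusters or classes of at least 50 cells per library and 0.49 in erythroid-like cells, or 0.33 among all erythroid-like barcodes.

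Neat1 was highest in the granulocytes. Neutrophil-like cells held 2858 CPM (2833 to 2882) in the WT library against 2492 CPM (2471 to 2513) in the other, a log2 difference of -0.20 (-0.21 to -0.18). With a per-cell marker gate in place of clusters the difference was -0.082. Basophil-like cells, only 72 and 43 in number, were higher still at 3641 and 3292 CPM. Nonclassical monocyte-like cells followed at 928 and 952 CPM. NK cell-like (602 and 722 CPM) and monocyte-like cells (629 and 607 CPM) overlapped. Scrublet called 14.7%, 12.7% and 11.4% of kept nonclassical monocyte-like, monocyte-like and NK cell-like cells doublets. Among all barcodes, the nonclassical monocyte-like and monocyte-like clusters had 0.51% and 2.33% doublets. In groups of lowest and highest total UMIs, the former held 626 and 656 CPM (WT) and 769 and 712 CPM (APP/PS1). The latter held 429 and 514 CPM (WT) and 450 and 534 CPM (APP/PS1). The part of doublets in the kept monocyte levels was not tested. Erythroid-like cells stood at 621 and 738 CPM among kept cells, in a cluster in which Scrublet called 48.9% of cells doublets, and at 252 and 254 CPM among all barcodes. T cell-like cells (422 and 398 CPM) and B cell-like cells (389 and 322 CPM) were lowest of the kept classes. The T cell-like clusters had 15.1% and 10.9% doublets, and the B cell-like cluster 8.36%.

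Pooled B, T and NK cell-like cells held 468 and 511 CPM of Neat1, a log2 difference from neutrophil-like cells of -2.61 in WT and -2.28 in APP/PS1. With doublets removed and new clusters, the mean of the libraries was -2.92 in place of -2.45. Neat1 and Gm26917 were the only members past 1 log2 unit between these classes in both libraries, and a change of that size was common: it was passed by 52.2% of 5769 genes in WT and by 53.5% of 6302 genes in APP/PS1. The genotype difference in Neat1 had no single direction over classes. It was negative in neutrophil-like, B cell-like (-0.27), T cell-like (-0.09) and monocyte-like cells (-0.05), and positive in NK cell-like (0.26), kept erythroid-like (0.25, but 0.01 among all barcodes) and nonclassical monocyte-like cells (0.04).

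Neat1 was also found in most neutrophils and not only in a few strong cells. A Neat1 UMI was present in 98.3% of WT and 97.6% of APP/PS1 neutrophil-like cells, and after each cell was thinned to 1000 UMIs in 88.0% and 84.7%, with 0 and 2 shallower cells left out. The thinned share in erythroid-like cells was 42.1% and 49.3% in the kept, doublet-rich cluster, beside 38.3% and 41.2% in monocyte-like cells. Among all barcodes the order of these classes was turned round, at 12.8% and 13.1% in erythroid-like and 33.3% and 34.4% in monocyte-like cells. Median depths were 2543 and 2645 UMIs in kept neutrophil-like cells, 7485 and 7515 UMIs in kept erythroid-like cells and 4740 and 4530 UMIs in all erythroid-like barcodes.

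**Figure D1:**
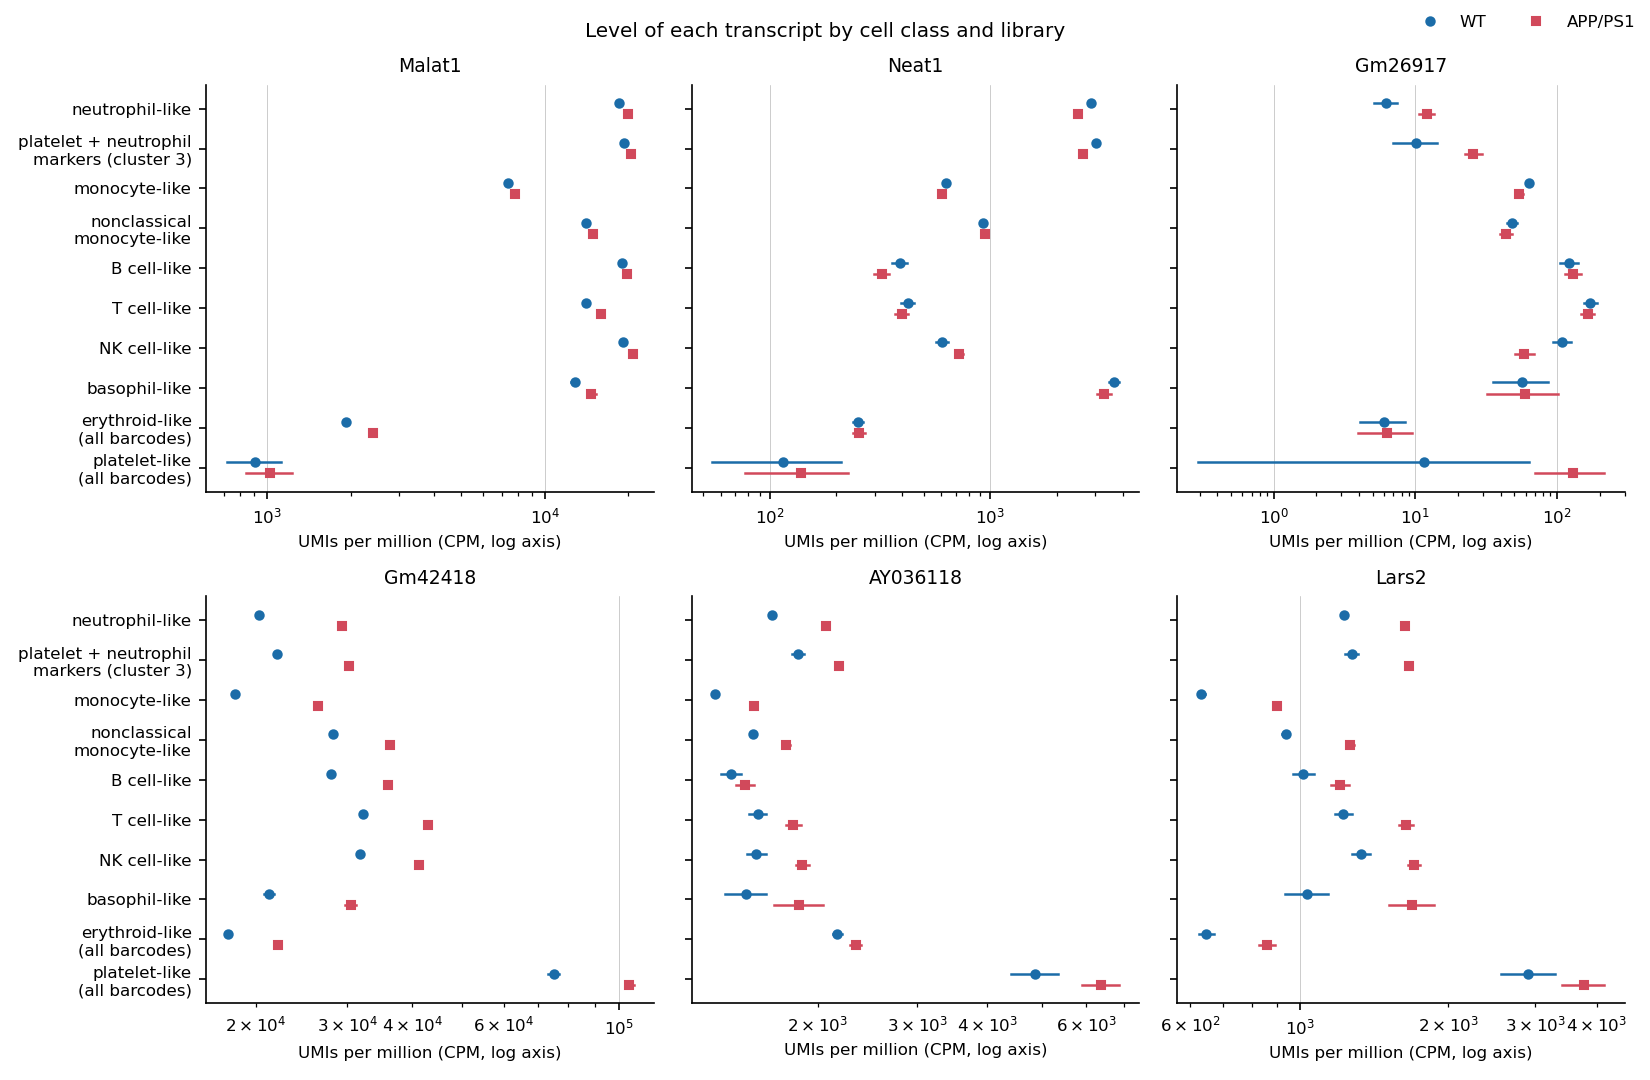
Level of each of the 6 transcripts by cell class, as CPM on a log axis, with 1 point per library (WT and APP/PS1) and exact 95% counting intervals. Neat1 is highest in basophil-like and neutrophil-like cells, Malat1 is low in monocyte-like, erythroid-like and platelet-like cells, and Gm42418 is higher in APP/PS1 than in WT in every class drawn.

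Gm42418 was higher in the APP/PS1 library in every named class. In neutrophil-like cells its level was 20261 CPM (20196 to 20326) in the WT library against 29351 CPM (29279 to 29424) in the other, a log2 difference of 0.53 (0.53 to 0.54), and 94 of the 5501 genes had a higher one. Leaving out the 10 cells of each library with most Gm42418 UMIs gave 0.54. Per cell, Gm42418 took a median of 2.11% of UMIs in WT (5th to 95th percentile 0.761% to 3.89%) and 3.08% in APP/PS1 (1.23% to 5.57%), so the cells of the libraries overlapped widely. Monocyte-like cells had the same log2 difference of 0.53, between 18238 and 26395 CPM. The kept T cell-like (0.42), NK cell-like (0.38), B cell-like (0.37), nonclassical monocyte-like (0.36) and erythroid-like cells (0.39) all had smaller ones in the same direction. The platelet- and neutrophil-marker cluster lay between, at 0.46.

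The order of cell classes by Gm42418 was the same in both libraries. From high to low it ran T cell-like (32183 and 42984 CPM), NK cell-like (31751 and 41326 CPM), nonclassical monocyte-like (28192 and 36230 CPM), B cell-like (27874 and 35898 CPM), basophil-like (21222 and 30482 CPM), neutrophil-like, monocyte-like and erythroid-like cells (17982 and 23515 CPM). Neighbouring classes differed by less than the libraries did, so the order rests on levels within a library. Platelet-like barcodes, measured without limits on UMIs, stood far above all of them at 74876 CPM (73073 to 76713) and 104882 CPM (102965 to 106826), in 116 and 148 barcodes with median totals of 631.5 and 676 UMIs. Pooled lymphocyte-like cells were above neutrophil-like cells by 0.60 in WT and 0.46 in APP/PS1 on the log2 scale.

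AY036118, the antisense partner of Gm42418, followed it in direction but not in size. Neutrophil-like cells held 1659 CPM (1640 to 1677) in the WT library against 2070 CPM (2051 to 2089) in the other, a log2 difference of 0.32. In the other kept classes of at least 50 cells the difference ran from 0.08 in B cell-like to 0.27 in NK cell-like cells, in each case below that of Gm42418. Its highest level among the named kept classes was in erythroid-like cells, at 1859 and 2101 CPM, and its lowest in monocyte-like cells, at 1313 and 1538 CPM.

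The ratio of the pair therefore depended on the cell class and on the library. In neutrophil-like cells there were 8.19 UMIs of AY036118 per 100 UMIs of Gm42418 in WT and 7.05 in APP/PS1. B cell-like cells had 5.04 and 4.13, T cell-like cells 4.86 and 4.21, and NK cell-like cells 4.90 and 4.54. Among all barcodes erythroid-like cells had 12.2 and 10.6, the highest of the named classes. In each of these classes the ratio was lower in APP/PS1.

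Gm26917 had the opposite pattern to Neat1. It was nearly missing from neutrophil-like cells, with 115 UMIs (6.20 CPM, 5.12 to 7.45) in WT and 258 UMIs (12.01 CPM, 10.6 to 13.6) in APP/PS1. T cell-like (172 and 164 CPM), B cell-like (122 and 130 CPM) and NK cell-like cells (108 and 58.9 CPM) held the most of the kept classes, and monocyte-like cells held 63.3 and 54.0 CPM. The lymphocyte-like sum was above neutrophil-like cells by 4.47 in WT and 3.22 in APP/PS1 on the log2 scale.

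The genotype difference of Gm26917 in neutrophil-like cells, 0.95 (0.63 to 1.28) on the log2 scale, rested on few cells. Its UMIs were found in 81 WT and 93 APP/PS1 cells, and the 10 cells with most of them held 38.3% of the UMIs in WT and 62.8% in APP/PS1, where the highest cell alone had 69. Without those 10 cells of each library, a choice made after seeing the data, the levels were 3.84 and 4.48 CPM and the difference was 0.22 (-0.24 to 0.68). It was 0.016 (-0.17 to 0.20) in the marker gate and 1.35 (1.08 to 1.64) with all barcodes. In NK cell-like cells Gm26917 was lower in APP/PS1, by -0.88 on the log2 scale. A Gm42418 UMI was present in every kept neutrophil-like cell.

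Lars2, although it lies on another chromosome, had a genotype difference in neutrophil-like cells nearer in size to that of Gm42418 than AY036118 had. Whether all UMIs counted as Lars2 came from its messenger RNA was not tested. Neutrophil-like cells held 1228 CPM (1212 to 1244) in the WT library against 1637 CPM (1620 to 1654) in the other, a log2 difference of 0.41 (0.39 to 0.44), and 215 of 5501 genes had a higher one. Monocyte-like cells went from 631 to 898 CPM (0.51), erythroid-like cells from 698 to 1021 CPM (0.55) and nonclassical monocyte-like cells from 936 to 1264 CPM (0.43). The difference was 0.42 in T cell-like, 0.36 in NK cell-like and 0.25 in B cell-like cells. Every kept class of at least 50 cells was higher in APP/PS1.

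Lars2 ordered the classes differently from Gm42418. NK cell-like (1330 and 1709 CPM), neutrophil-like, T cell-like (1227 and 1641 CPM), basophil-like (1033 and 1688 CPM) and B cell-like cells (1017 and 1209 CPM) held the upper part of the kept range. The lymphocyte-like sum was at a log2 difference from neutrophil-like cells of -0.04 in WT, where the interval included 0, and -0.07 (-0.10 to -0.04) in APP/PS1, a sign that turned under 4 alternatives. Monocyte-like cells were lowest of the kept classes. Platelet-like barcodes were highest of the named classes, at 2907 and 3766 CPM, as they were for Gm42418. The ratio of Lars2 to Gm42418 stayed between 3.1 and 6.1 UMIs per 100 over all named classes and libraries, whereas that of Malat1 to Gm42418 ranged from 0.974 in platelet-like barcodes to 101.0 in neutrophil-like cells.

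**Figure D2:**
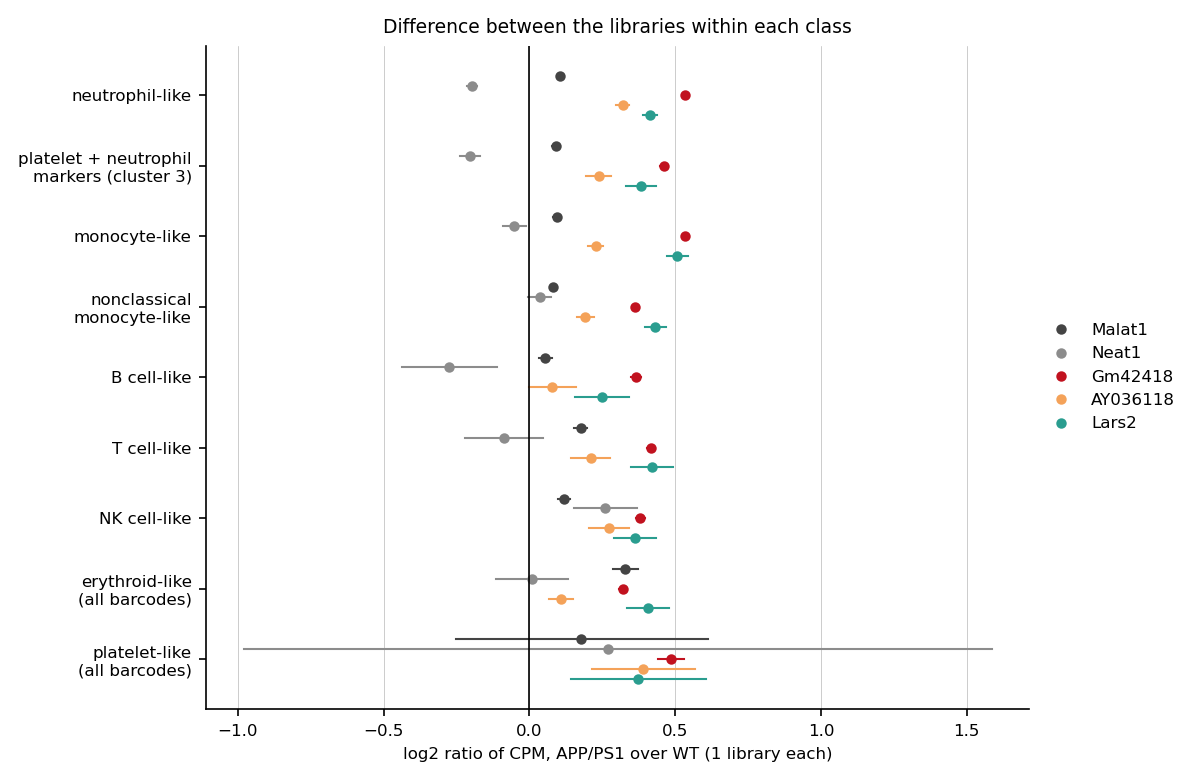
Log2 difference in CPM between the APP/PS1 and WT libraries for 5 transcripts (all but Gm26917) and each cell class, with exact 95% counting intervals and a line at 0. Gm42418 and Lars2 lie above 0 in all named classes drawn, whereas Neat1 lies on both sides.

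The charging enzymes that are related to Lars2 in function did not share its level. The 16 other mitochondrial aminoacyl-tRNA synthetases summed in neutrophil-like cells to only 24.4 (WT) and 27.9 CPM (APP/PS1), and none of them had 200 UMIs. Hars2 was the highest at 5.66 and 5.73 CPM, followed by Cars2 at 4.37 and 4.56 CPM. The cytosolic leucyl enzyme Lars was at 7.88 and 8.29 CPM. UMI counts of a 3' kit do not scale with length in a simple way, so these sums are given side by side without a ratio.

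Genes around these transcripts were compared between genotypes by list, and the counts below stand beside the 4.74% of all genes past 0.5, so that a count of 0 in lists this short is no result about them. Of 13 paraspeckle proteins, 10 had at least 200 UMIs, 0 were past a log2 difference of 0.5 in either direction, and the median was 0.05. The 3 most abundant included Rbm39 (515 and 530 CPM) and Hnrnpk (202 and 212 CPM). All 16 nuclear speckle and splicing proteins were measured, none was past 0.5, and the median was 0.03, with Srsf5 at 870 and 1010 CPM and Son, a speckle scaffold, at 532 and 514 CPM. Both medians lay near the 0.05 of all genes.

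The same background of 4.74% holds for rRNA production. Of 18 genes of the nucleolus and RNA polymerase I, 5 had at least 200 UMIs, 0 were past 0.5, and the median was 0.02, with Ncl at 90.0 and 89.8 CPM and Ubtf, a polymerase I factor, at 54.6 and 54.7 CPM. Genes with symbols of the Rpl and Rps series, a list that also takes in a few S6 kinases, had a median of 0.08, and 1 of 89 was past 0.5, lower in APP/PS1. Mitochondrially encoded transcripts ranged from -0.32 to 0.36 with a median of -0.17, and 0 of 11 were past 0.5.

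Total UMIs per cell set Malat1 and Neat1 apart from Gm42418, AY036118 and Lars2. All deposited neutrophil-like barcodes, 7771 in WT and 9853 in APP/PS1, were split within each library into 4 groups of about equal size by total UMIs, with means of 1832 and 5758 UMIs in the lowest and highest group of WT and 1841 and 6596 UMIs in APP/PS1. Malat1 kept its share, at 19588 CPM in the lowest and 18419 CPM in the highest group of WT and 21087 and 20084 CPM in APP/PS1. Neat1 also kept it, at 3272 and 2981 CPM in WT and 2820 and 2798 CPM in APP/PS1. Their UMIs per cell thus grew nearly as the total did, by 2.95-fold and 3.41-fold for Malat1 and 2.86-fold and 3.55-fold for Neat1, beside 3.14-fold and 3.58-fold for the total.

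Gm42418 lost its share as totals grew. It fell through the 4 groups of WT from 26774 to 24328, 21478 and 12241 CPM, and of APP/PS1 from 38518 to 35190, 31606 and 17026 CPM. Per cell, its mean count went from 49.1 to 70.5 UMIs in WT and from 70.9 to 112 in APP/PS1, which is 1.44-fold and 1.58-fold. The log2 difference of the lowest over the highest group was 1.13 and 1.18.

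AY036118 and Lars2 behaved alike in this respect. AY036118 had a log2 difference of 1.05 and 1.11 between the lowest and highest group, and Lars2 of 1.06 and 0.96. Gm42418, AY036118 and Lars2 were the 3 members past 0.5 in both libraries, and that size was passed by 8.63% of 4161 genes in WT and 6.23% of 4992 genes in APP/PS1. No gene with enough UMIs had a higher difference than Gm42418 in WT and 1 had in APP/PS1, whereas 2 and 7 were above Lars2. Among kept cells only, the Lars2 difference was 0.65 as the mean of the libraries, in place of 1.01. The share of mitochondrially encoded UMIs was alike in the lowest and highest groups, at 0.36% and 0.34% in WT and 0.31% and 0.30% in APP/PS1.

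**Figure D3:**
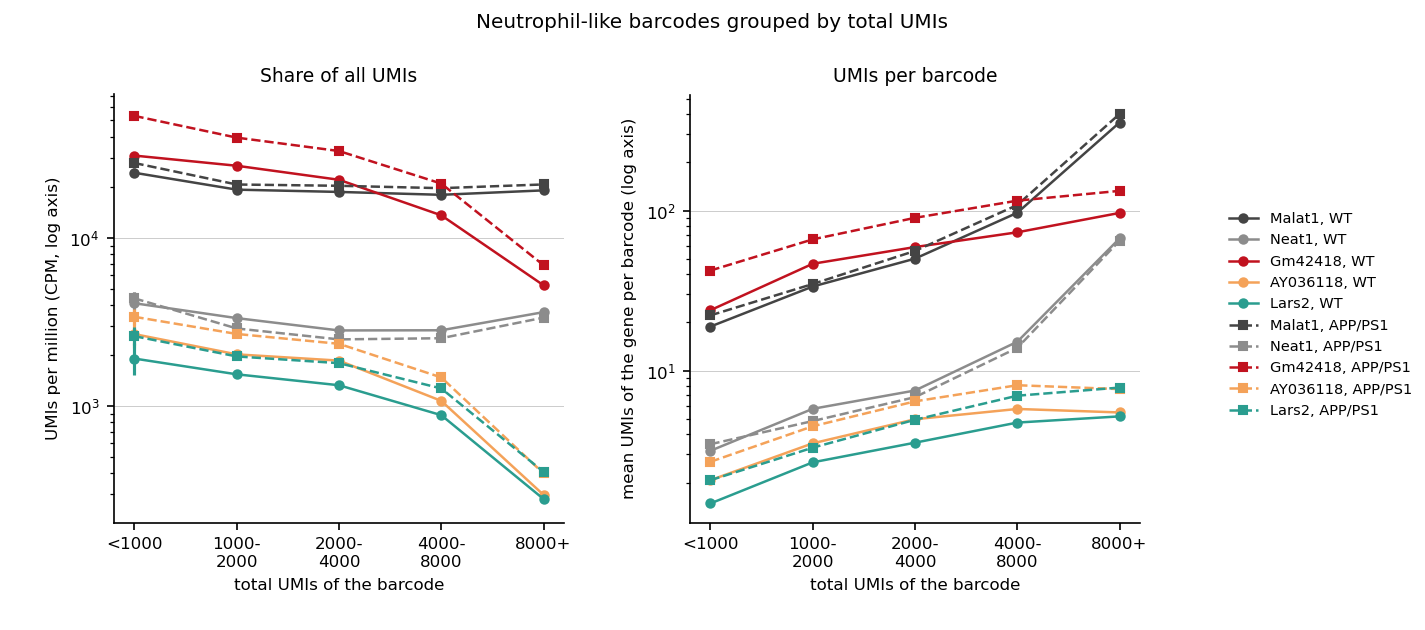
CPM (left, with exact 95% counting intervals) and mean UMIs per barcode (right) of 5 transcripts (all but Gm26917) in all deposited neutrophil-like barcodes, both on log axes, by bins of total UMIs per barcode (below 1000, 1000 to 2000, 2000 to 4000, 4000 to 8000, and 8000 or more), with solid lines for WT and dashed lines for APP/PS1. Gm42418, AY036118 and Lars2 fall in CPM with the total in both libraries, while Malat1 and Neat1 stay nearly level.

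The genotype difference held within bins of total UMIs. In neutrophil-like barcodes with 2000 to 4000 UMIs, the bin with most cells (5602 and 6903), Gm42418 had levels of 22168 (WT) and 32858 CPM (APP/PS1), and Lars2 of 1331 and 1801 CPM. Over the 5 bins the log2 difference of Gm42418 ran from 0.40 to 0.78 and that of Lars2 from 0.35 to 0.54, all in 1 direction. Neat1 was lower in APP/PS1 in the 4 bins from 1000 UMIs up and higher (0.10) in the bin below 1000 UMIs, which held 56 and 129 barcodes. In the highest bin Gm42418 was down to 5228 and 6884 CPM.

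Gm42418 also fell with total UMIs in other classes, and no difference between classes was tested. Lowest over highest group, Gm42418 had log2 differences of 1.02 and 0.82 in monocyte-like, 0.73 and 0.67 in nonclassical monocyte-like, 0.96 and 1.01 in lymphocyte-like and 0.68 and 0.98 in erythroid-like barcodes (WT and APP/PS1). Malat1 had a larger share at low totals in lymphocyte-like barcodes too (0.31 and 0.28) and in nonclassical monocyte-like barcodes of APP/PS1 (0.31, beside 0.05 in WT), and it was near level in monocyte-like barcodes (0.02 and 0.07). It went the other way in erythroid-like barcodes, at -1.95 and -2.74, and Neat1 did so as well, at -2.002 and -2.044. In lymphocyte-like barcodes the share of Neat1 was also smaller at low totals (-0.76 and -0.75).

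Single cells gave the strongest correlation with total UMIs for Gm42418 when depth was made equal. With each neutrophil-like barcode thinned to 1000 UMIs, Spearman's rho of Gm42418 with the total before thinning was -0.41 in 7715 WT barcodes and -0.42 in 9724 APP/PS1 barcodes. For Malat1 it was -0.04 and -0.03, and for Neat1 -0.08 and -0.05. AY036118 (-0.16 and -0.19) and Lars2 (-0.16 and -0.17) lay between. Thinning left few UMIs of these 2. Among kept neutrophil-like cells, 76.2% and 80.6% then had an AY036118 UMI and 68.5% and 77.4% a Lars2 UMI. For Gm42418 the shares were 99.97% and 99.99%. Low counts weaken a rank correlation, so the sizes of rho cannot be compared between transcripts of unlike abundance. Gm42418 ranked with AY036118 (0.39 and 0.43) and with Lars2 (0.32 and 0.39), and Neat1 with Malat1 (0.29 and 0.27), while Gm42418 and Malat1 were nearly unrelated (0.03 and 0.02). These are descriptions over cells of 1 library each, which share that library and its handling.

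The mitochondrial share, another common sign of cell damage, ranked little with Gm42418 inside neutrophil-like barcodes, with a rho of -0.10 and -0.05. Over all classes the picture differed. Barcodes with over 10% mitochondrial UMIs, 85 in WT and 87 in APP/PS1 with median totals of 922 and 853 UMIs, held 62068 and 68582 CPM of Gm42418, beside 16748 and 24009 CPM in barcodes below 2%. Gm26917 reached 728 and 1059 CPM in the same barcodes, beside 23.0 and 28.9 CPM below 2%. Of the barcodes over 10%, 59 of 85 in WT and 59 of 87 in APP/PS1 lay in 1 shallow unnamed cluster. It was led by Mgp, Gm26917 and Fabp4 and is described below, so the Gm26917 levels given there share these barcodes. Since the bins of mitochondrial share hold different mixtures of classes, the part of cell type in this contrast was not tested.

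Limits on barcodes acted on these transcripts unequally. Over all classes, barcodes under the 5th percentile of total UMIs held 60228 and 75116 CPM of Gm42418, and those over the 95th percentile 5476 and 7899 CPM. Barcodes outside any limit (2559 and 2437) held 8441 and 11649 CPM, less than the 22268 and 31063 CPM of those inside, in sums to which deep barcodes add most. Lars2 followed, at 325 and 491 CPM outside and 955 and 1399 CPM inside, whereas Neat1 was higher outside, at 1731 and 2015 CPM beside 1458 and 1593 CPM inside. Gm42418, AY036118 and Lars2 were past 0.5 on the log2 scale in both libraries, as were 6.51% of 9421 genes in WT and 6.21% of 9261 genes in APP/PS1.

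Within neutrophils, Neat1 and Malat1 varied with the cluster. Neutrophil-like cells were clustered again into 7 clusters, with the platelet- and neutrophil-marker cluster included. The 6 transcripts were left out of the genes used for clustering. In the cluster led by the granule genes Camp, Ltf and Ngp, products of immature neutrophils, Neat1 was at 1086 and 893 CPM and Malat1 at 9409 and 9048 CPM. In the cluster led by Clec4n, Icam1 and Slc36a3os Neat1 was at 3561 and 2990 CPM and Malat1 at 22172 and 23138 CPM. The cluster led by Rgs1, Hbegf and Gm28192 was close to that, with 3543 and 3151 CPM of Neat1 and 21230 and 23159 CPM of Malat1.

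Both nuclear RNAs were thus lowest in the immature granule gene cluster in each library. Neat1 was lower in APP/PS1 in 7 of 7 clusters, by log2 differences from -0.17 to -0.31. Gm42418 was higher in 7 of 7, from 0.37 to 0.54, and Lars2 in 7 of 7. Gm42418 was lowest in the clusters led by Rgs1 (14161 and 18600 CPM) and by Camp (15478 and 21129 CPM), whose median totals of 3775 and 5431 UMIs and of 4328 and 6068 UMIs were the highest of the 7. The part of depth in that difference between clusters was not tested. The interferon gene cluster (Ifit2, Ifit1bl1 and Ifit3) and the largest WT cluster (Stfa2, Cstdc5 and Stfa1) had close levels of Gm42418, at 22147 and 21288 CPM in WT and 30079 and 29834 CPM in APP/PS1.

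**Figure D4:**
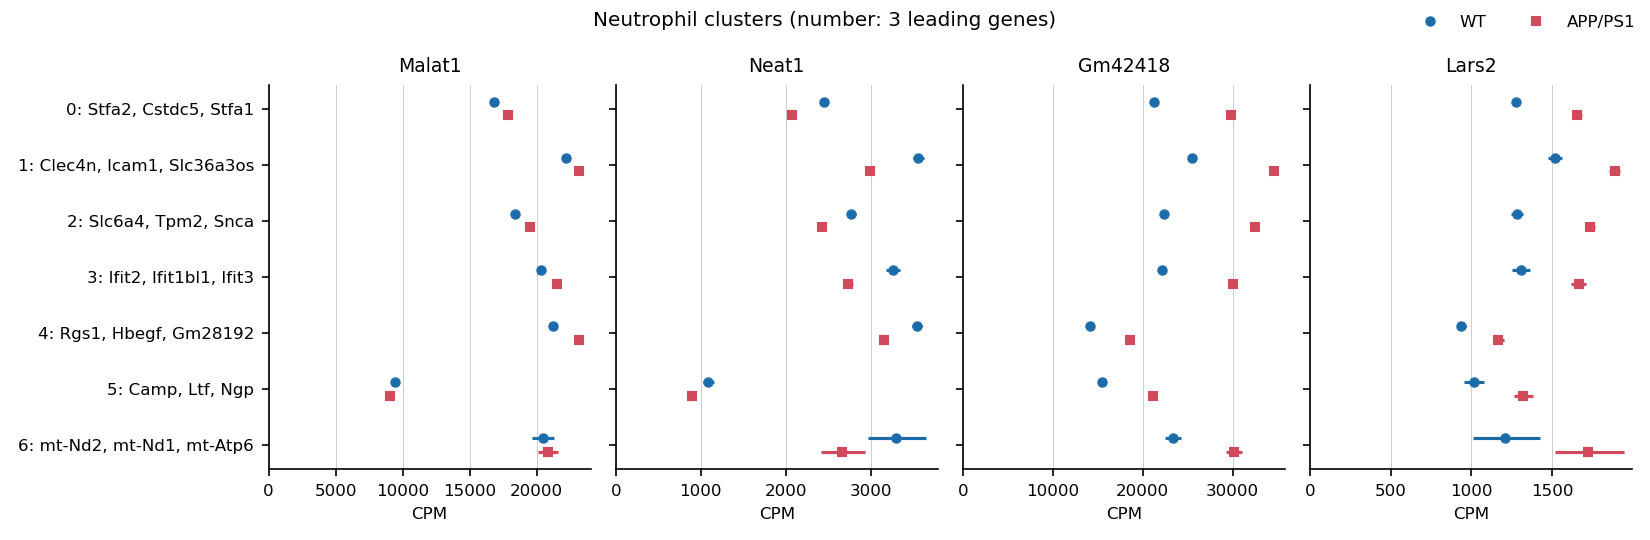
CPM of Malat1, Neat1, Gm42418 and Lars2 in the 7 neutrophil clusters, each labelled with its number and 3 leading genes, with 1 point per library and exact 95% counting intervals. Neat1 and Malat1 are lowest in the cluster led by Camp, Ltf and Ngp, and Gm42418 is higher in APP/PS1 in all 7 clusters.

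Ratios between members also told cell classes apart. Neat1 stood at 15.4 UMIs per 100 UMIs of Malat1 in WT and 12.5 in APP/PS1 neutrophil-like cells, and at 28.4 and 22.3 in basophil-like cells. In B cell-like cells the ratio was 2.05 and 1.63, in T cell-like cells 2.98 and 2.49, and in NK cell-like cells 3.15 and 3.48. Monocyte-like cells lay between, at 8.55 and 7.73. Both RNAs come from neighbouring genes, and these ratios use no total, so a change in any other transcript does not enter them.

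**Figure D5:**
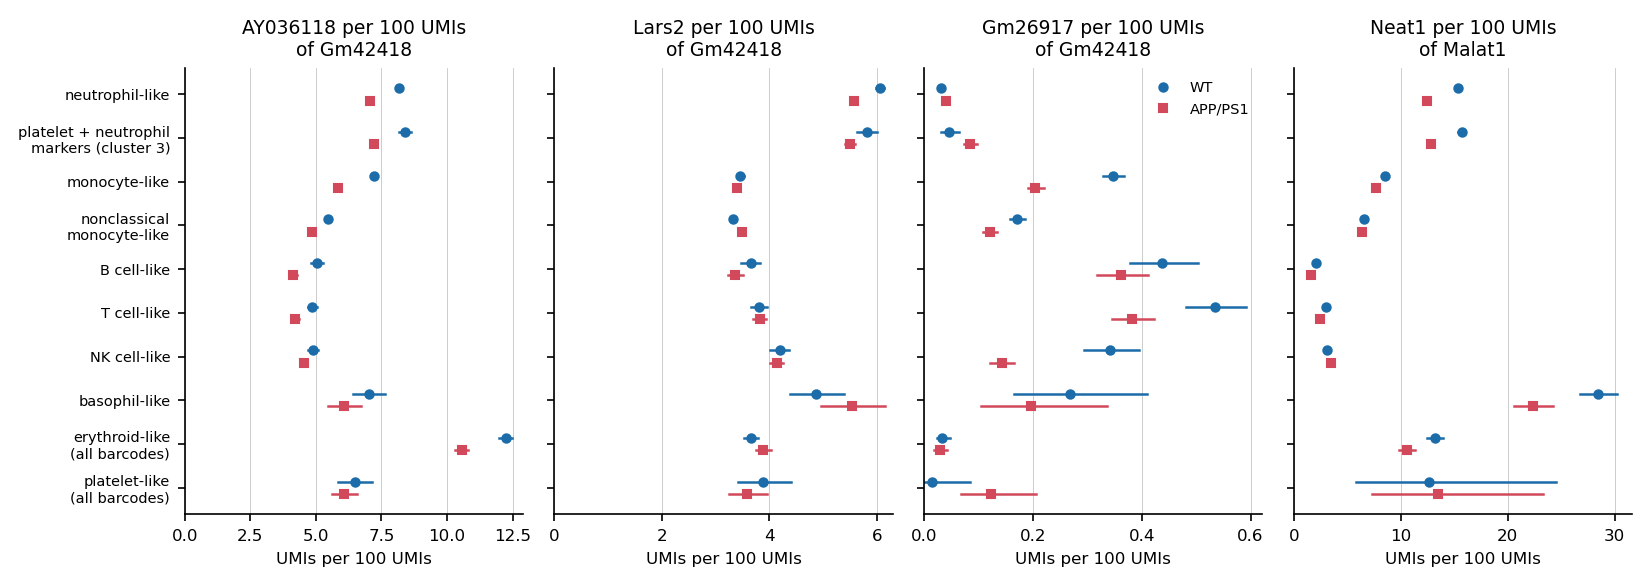
UMIs of one transcript per 100 UMIs of another (AY036118, Lars2 and Gm26917 per Gm42418, and Neat1 per Malat1) by cell class, with 1 point per library and exact 95% intervals. Neat1 per Malat1 is highest in basophil-like and neutrophil-like cells, and AY036118 per Gm42418 is highest in erythroid-like cells.

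The genes most like each member were ranked by Pearson's r of log2(CPM + 1) over 16 sums, which were the cell classes by library, among 8889 genes with at least 500 UMIs. For Neat1 they were Fam32a (0.99), Atg3 (0.99), Pxn (0.99), C5ar1 (0.98) and Snap23 (0.98), and C5ar1, a complement receptor of neutrophils, ranged from 26.2 to 497 CPM over the sums. For Malat1 they were Lrif1 (0.97), Klf2 (0.97), Zfp869 (0.96), Kmt2c (0.95) and Cspp1 (0.95). Lars2 was most like Klf6 (0.87), Clec2d (0.86), 5031425E22Rik (0.85), Swt1 (0.85) and C730034F03Rik (0.85). The summed chromosome 17 transcripts had no gene above 0.84, with Papolg first. Among the members, Lars2 had an r of 0.81 with Malat1 and 0.73 with Gm42418, and Neat1 had -0.75 with Gm26917. The 16 sums share 2 libraries and their depths, so these values describe likeness only.

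A set of shallow barcodes departed from the genotype pattern. A cluster of 698 WT and 756 APP/PS1 barcodes, found when all deposited barcodes were clustered, had 23.5% and 29.4% of its barcodes inside the limits. It had median totals of 751.5 and 749 UMIs and was led by Mgp, Gm26917 and Fabp4, and it matched no marker list. Mitochondrially encoded genes were also among its leading genes, and their share of its UMIs was 3.94% in WT and 3.26% in APP/PS1. Scrublet called 162 of its WT and 115 of its APP/PS1 barcodes doublets. Gm42418 there was at 51225 and 52063 CPM, a log2 difference of 0.02, and Lars2 at 2030 and 2172 CPM, a log2 difference of 0.10. Malat1 (8433 and 12805 CPM) and Neat1 (811 and 1362 CPM) were higher in APP/PS1 there, by 0.60 and 0.75. The 10 barcodes with most Malat1 UMIs held 18.6% of them in WT and 19.8% in APP/PS1, and without these barcodes Malat1 was at 7305 and 11226 CPM. The part of RNA quality and of doublets in these differences was not tested. In that cluster 17.2% of 583 genes were past 0.5.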

How the data were processed

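Blood cells enriched for neutrophils were captured with the 10x v3.0 kit, 1 library per genotype, and the authors counted UMIs per gene and barcode with Cell Ranger 5.0.0 in default mode against mm10. The deposited values are raw UMI counts, not normalized. No column of another series was present (0 columns unused). Cell Ranger in default mode assigns reads by strand, and the counts of the overlapping antisense pair AY036118 and Gm42418 depend on that.

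Cells inside the 5th to 95th percentiles of genes and UMIs with at most 10% mitochondrial UMIs were kept, as the study's methods state. They were clustered in Seurat 5.3.0 (R 4.3.3) from 2000 variable features without the 6 members, 15 components and resolution 0.2, and named from marker lists. Doublets were called with Scrublet (scanpy 1.11.5), with the automatic threshold of the WT library (0.217) for both, since that of the APP/PS1 library called almost none, and kept in the main values, as an alternative removed them. Counts were summed per library and class. CPM carry exact Poisson intervals and ratios exact conditional intervals at 95%. With 1 library per genotype no test was run, and the cells of a library are not replicates. Background shares use genes with at least 200 UMIs, likeness genes with at least 500. Named genes were the members, the 3 most abundant genes of each related list and the 5 genes most like each member. The value of 1 list gene is not reported here. Members, lists and comparisons were chosen with earlier results of these data known. Scripts were tested on simulated data. Alternatives were all barcodes, pooled percentiles, doublet removal, TMM scaling (edgeR 4.0.16), another denominator, per-cell means and a marker gate. Transcript sequences came from GENCODE M21 and were compared with blastn 2.17.0.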

Additional observations from a re-analysis of the deposited data

Results flagged for a closer look

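In signals outside the named classes, Malat1 stood above every kept class in a small unnamed cluster of all deposited barcodes led by Mal, Psca and Csta1. It was at 80986 CPM (79727 to 82260) in the 13 WT barcodes and at 79466 CPM (78472 to 80470) in the 15 APP/PS1 barcodes, where the highest upper bound of a kept class was 20936 CPM. Their median totals were 15663 and 17437 UMIs, and 0 of them were called doublets. Gm26917 stood above the kept classes in the unnamed cluster led by Mgp, Gm26917 and Fabp4, at 507 CPM (457 to 562) in 698 WT barcodes and 627 CPM (575 to 683) in 756 APP/PS1 barcodes, beside a highest bound of 190 CPM. In that cluster 10 barcodes held 83.0% of the Gm26917 UMIs in WT and 76.0% in APP/PS1, and without them the levels were 87.2 and 152 CPM, below that bound.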

How the results depend on the processing

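No paired analysis was possible because each genotype had 1 library. No value of the genotype comparison or the depth comparison reversed, and the cause of the moves below was not tested. For APP/PS1 over WT in neutrophil-like cells, the log2 difference of Malat1 (0.11) was 0.12 with all barcodes, 0.12 without doublets, 0.068 with TMM, 0.12 with members, mitochondrial and haemoglobin genes out of the denominator, 0.11 per cell and 0.18 in the marker gate. Neat1 (-0.20) was -0.15 with all barcodes, -0.18 without doublets, -0.24 with TMM and -0.082 in the gate. The chromosome 17 sum (0.52) was 0.48, 0.50 with pooled percentiles, 0.51 without doublets, 0.48 with TMM, 0.53 with the other denominator, 0.53 per cell, 0.61 in the gate and 0.51 with the platelet- and neutrophil-marker cluster, added after seeing the data. Lars2 (0.41) was 0.38 with all barcodes, 0.38 with TMM and 0.54 in the gate. For lymphocyte-like over neutrophil-like cells, as the mean of the libraries, Malat1 (-0.10) was -0.21 with all barcodes, -0.088 without doublets, -0.025 with the other denominator and -0.13 in the gate. Neat1 (-2.45) was -2.92, -2.38 and -3.01 without doublets, with the other denominator and in the gate. The chromosome 17 sum (0.50) was 0.54, 0.61, 0.57 and 0.65. Lars2 (-0.06) reversed, to 0.00051 with all barcodes, 0.014 without doublets, 0.015 with the other denominator and 0.032 in the gate. For the lowest over the highest group of UMIs, the alternatives were kept cells, doublet removal and the other denominator. They gave 0.13, 0.062 and 0.11 for Malat1 (0.08) and 0.25, 0.0037 and 0.10 for Neat1 (0.07). The sum (1.15) had 0.80, 1.51 and 1.18, and Lars2 (1.01) had 0.65, 1.41 and 1.04. Doublet removal here meant new clusters. Its neutrophil-like class took in a cluster of 358 WT and 341 APP/PS1 barcodes with a median of 22353 UMIs. No neutrophil-like cluster behind the main value was as deep, so these values do not show doublet removal alone.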

Other observations

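Among 24 other long noncoding RNAs, 14 had at least 200 UMIs in neutrophil-like cells and their median log2 difference between genotypes was -0.04. A difference past 0.5 was passed by 4.74% of the 5501 genes tested. The 3 past it here, named after their values were seen, were Snhg12 (10.3 and 17.9 CPM, 0.80) and Snhg8 (20.6 and 29.1 CPM, 0.50), both hosts of small nucleolar RNAs and higher in APP/PS1, and Mir22hg (240 and 163 CPM, -0.55), the host of a microRNA and lower. The most abundant of the list were 1810058I24Rik (571 and 556 CPM), Mirt1 (361 and 312 CPM) and Mirt2 (293 and 254 CPM).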
